A study of Mus musculus with 6 samples.

Results

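The genes described here are 36 parts of the machinery that starts and carries out DNA replication, taken by symbol from a table of 24110 mouse genes, and all 36 were in the table and were tested. They cover the 6 subunits of the MCM helicase, the factors that load it onto DNA, the factors that switch it on, proteins of the moving fork, the enzymes that make deoxynucleotides, and cyclins and E2F factors of the step from G1 into S phase, plus Uhrf1 and Slbp. Transcript levels came from RNA sequencing of hematopoietic stem cells, the bone marrow cells from which all blood lineages arise, sorted by the surface pattern Lineage-, Sca-1+, CD48- and CD150+. The Prmt5 KO group held 3 libraries from C57BL/6 mice in which both floxed Prmt5 alleles had been deleted (Prmt5Δ/Δ), and the Prmt5 fl/fl group held 3 libraries from C57BL/6 mice with intact floxed alleles. The cells were taken at day 7 after induction, animals of both genotypes were matched by litter and gender, and each library pooled bone marrow from 2 mice. The sources used here do not give the age of the mice, the Cre that made the deletion or the inducing agent. PRMT5 is an enzyme that places symmetric methyl marks on arginines, among them those of Sm proteins of the spliceosome, and the title of the series asks about its part in splicing in these cells. The values are totals per gene, so they address transcript levels and not splicing.

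Replication is prepared in G1, when the origin recognition complex, Cdc6 and Cdt1 load the MCM helicase onto origins, and the kinase Cdc7 and cyclin-dependent kinases then turn loaded helicases into active forks. Many genes of this machinery are targets of E2F transcription factors, which the retinoblastoma family holds in check until cyclin-dependent kinase activity rises. Most hematopoietic stem cells of an adult mouse rest outside the cycle, so bulk RNA of these genes reflects both how many cells are cycling and how much RNA each cycling cell holds, which cannot be told apart in pooled cells.

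None of the 36 replication genes passed the test between Prmt5 KO and Prmt5 fl/fl stem cells. Values are given as scaled counts, reads per gene that the authors scaled to a common total of 44704636, and genotypes were compared on log2(scaled count + 1) with limma, with p-values adjusted over all 14113 genes that had a mean of at least 10 scaled counts and a threshold of 0.05. Limma called 0 of 36 members, against 0.73% of all genes tested (39 higher and 64 lower; 35 and 22 with median-of-ratios scaling, 38 and 26 with quantile normalization), a rate too low for a count of 0 among 36 genes to say much. At an unadjusted limma p under 0.05 there were also 0 of 36 members, against 18.2% of all genes, and the smallest was 0.0579 for Mcm7 (adjusted p = 0.293). EdgeR and DESeq2 on the recovered reads called 0 members each, against 0.425% and 6.95% of all genes, and neither had a member at an unadjusted p under 0.05. In scaled counts, the 3 Prmt5 KO values lay wholly on 1 side of the 3 Prmt5 fl/fl values for 2 members. These were Mcm7 and Slbp, both lower. The same held for 28.2% of all genes, 1171 of them higher and 2803 lower. This was counted with the authors' scaling only. Of the members, 21 had log2 fold changes above 0 and 15 below, with a median of 0.050, beside a median of -0.048 over all genes.

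The size of change that the data leave room for was narrow for most of the members. The 95% interval of the fold change lay within 2-fold either way for 34 of the 36, all but Pole and E2f2, while 60.0% of all genes had an interval that narrow. That share includes low genes, down to a mean of 10 scaled counts, and no share matched for level was computed. The intervals take the scaling as given. The median half-width of the members' intervals was 0.37 on the log2 scale. The lowest bound was -0.87 for Tk1 and the highest 1.59 for E2f2.

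In the same libraries the targeted gene and a brake on the cell cycle moved far more. Prmt5 stood at 1056, 1049 and 897 scaled counts in Prmt5 KO replicates 1 to 3, against 6076, 6024 and 6009.9 in Prmt5 fl/fl replicates 1 to 3, which gave a fold change of -2.60 on the log2 scale (limma, adjusted p = 6.18e-04; with the replicate number as a block, adjusted p = 0.0618). Every library thus matched its label, although the sources do not state which part of Prmt5 was deleted. Cdkn1a, which encodes p21, an inhibitor of cyclin-dependent kinases including the cyclin E kinase that opens S phase, stood at 6182, 3140.1 and 5684 in Prmt5 KO and at 511, 764 and 822 in Prmt5 fl/fl cells. Its log2 fold change was 2.81 (95% interval 2.11 to 3.51; limma, adjusted p = 0.0195; with the block, adjusted p = 0.19), and no member's interval reached the lower bound of that one. Its call was lost without Prmt5 KO replicate 1 (limma, adjusted p = 0.141), Prmt5 KO replicate 3 (0.155), Prmt5 fl/fl replicate 1 (0.0607) or Prmt5 fl/fl replicate 2 (0.0767).

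**Figure D1:**
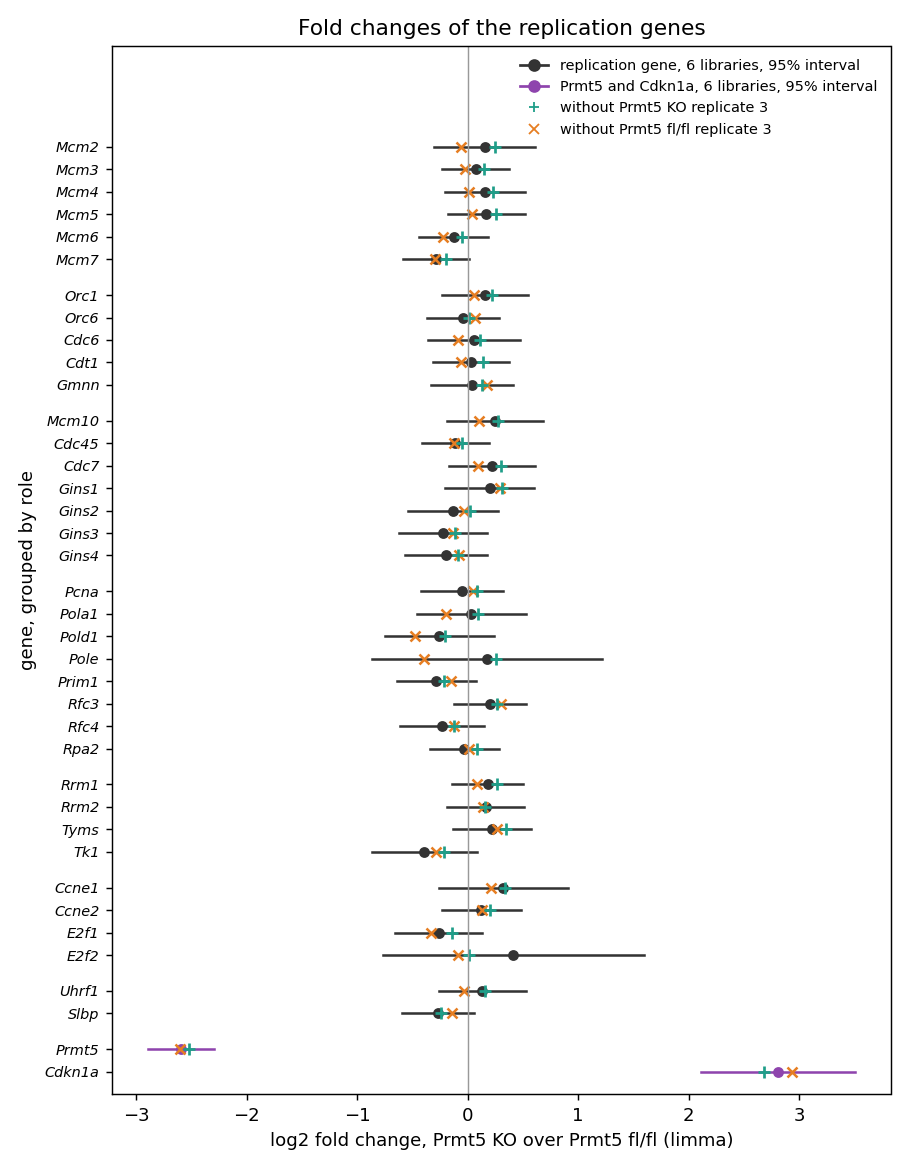
Log2 fold changes (Prmt5 KO over Prmt5 fl/fl, limma) of the 36 genes grouped by role, with 95% intervals from all 6 libraries (dots and lines) and the estimates without Prmt5 KO replicate 3 (plus signs) and without Prmt5 fl/fl replicate 3 (crosses); Prmt5 and Cdkn1a are at the bottom. Every member's interval includes 0, while Prmt5 lies at -2.60 and Cdkn1a at 2.81.

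A library of each genotype stood apart from the others of its genotype. Prmt5 fl/fl replicate 3 held more RNA of short genes and less of long genes than the other Prmt5 fl/fl libraries. Across the 36 members the difference of its log2 value from the mean of Prmt5 fl/fl replicates 1 and 2 had a Spearman correlation of -0.85 with deposited gene length, and across all 14113 genes, over which the libraries share their depth and scaling, it was -0.57 (genes are not independent replicates). Set against the other Prmt5 KO libraries, Prmt5 KO replicate 3 had chi-square values over genes, divided by their degrees of freedom, of 125 and 144, beside 27.3 between Prmt5 KO replicates 1 and 2, and Prmt5 fl/fl replicate 3 had 228 and 224 against the other Prmt5 fl/fl libraries, beside 32.1 between Prmt5 fl/fl replicates 1 and 2. Estimates without each of the 2 libraries are plotted for every member, and are given below for the members whose sign turned and for some others. Read totals were 37834096 to 41812565 in Prmt5 KO and 42213314 to 44704636 in Prmt5 fl/fl libraries and did not overlap. All 12 stem cell markers were above 0 in every library, with summed levels of 111007 to 128679 scaled counts in Prmt5 KO and 113782 to 158130 in Prmt5 fl/fl. The sum of 10 granulocyte and monocyte markers was 92544, 66173 and 812856 in Prmt5 KO replicates 1 to 3, against 220875, 70985 and 29515 in Prmt5 fl/fl replicates 1 to 3, none of the 10 at 0 in any library.

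Levels differed far more between the genes than between the genotypes. Per length, as TPM (length-corrected relative abundance) computed from the scaled counts and the deposited lengths, Mcm6 was the highest member at 645 ± 81.1 TPM in Prmt5 KO cells and 707 ± 134 TPM in Prmt5 fl/fl cells (SD, n = 3 each). Pcna, the sliding clamp, was at 457 ± 79 TPM in Prmt5 KO cells and 467 ± 16.8 TPM in Prmt5 fl/fl cells, and Mcm7 at 358 ± 58.5 TPM in Prmt5 KO cells and 433 ± 42.3 TPM in Prmt5 fl/fl cells. At the low end E2f2 was at 11.1 ± 5.72 TPM in Prmt5 KO cells and 8.86 ± 5.18 TPM in Prmt5 fl/fl cells, Orc1 at 18.8 ± 1.7 TPM in Prmt5 KO cells and 17 ± 3.56 TPM in Prmt5 fl/fl cells, and Ccne2 at 21.8 ± 3.08 TPM in Prmt5 KO cells and 19.9 ± 2.08 TPM in Prmt5 fl/fl cells. In Prmt5 fl/fl cells the members ran from the 33.9th percentile of tested genes (E2f2) to the 98.7th (Mcm6).

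**Figure D2:**
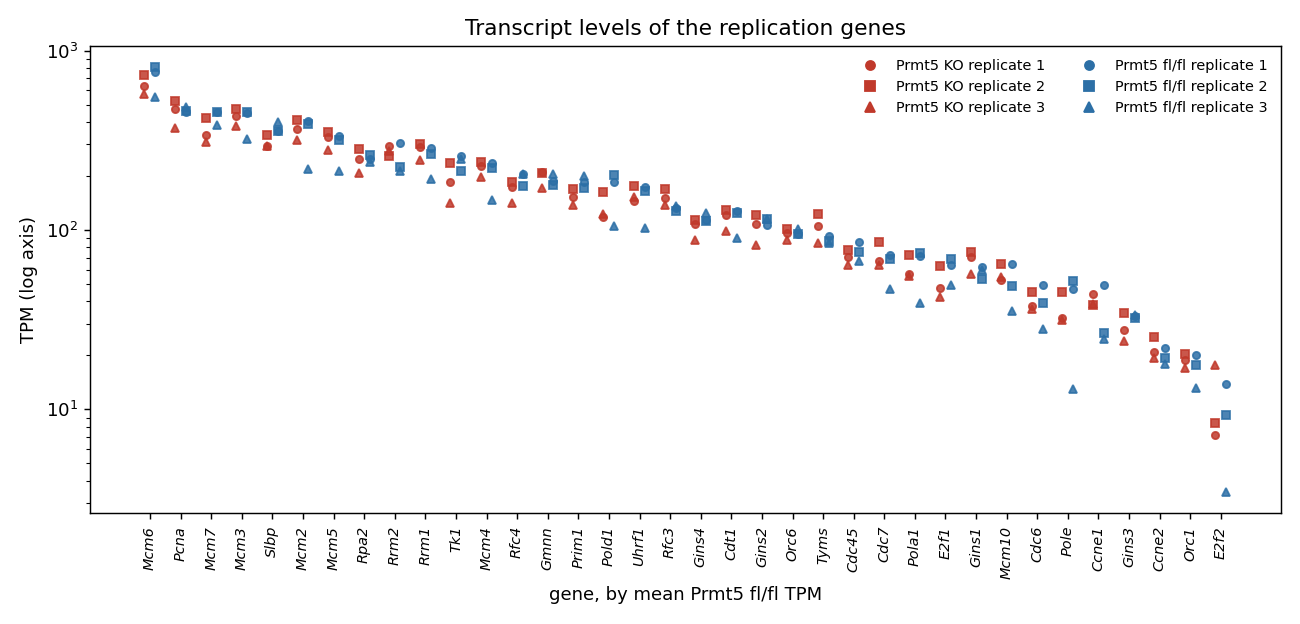
TPM (log axis) of each member in each library, Prmt5 KO (red) left of Prmt5 fl/fl (blue), with genes ordered by their Prmt5 fl/fl mean. Mcm6 is at the top and E2f2 at the bottom in both genotypes, and Prmt5 fl/fl replicate 3 (blue triangle) drops far below the rest for the long genes Pole and E2f2.

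The MCM helicase is a ring of 6 related subunits that unwinds DNA ahead of the fork. Mcm2 stood at 27070.4, 29291 and 23304 scaled counts in Prmt5 KO, against 28273, 26786 and 17669.7 in Prmt5 fl/fl (log2 fold change 0.16, interval -0.30 to 0.61). Mcm5 stood at 24805, 25569 and 21050.3 in Prmt5 KO, against 23762, 22391 and 17594 in Prmt5 fl/fl (log2 fold change 0.17). For both genes the 2 genotypes overlapped, and Prmt5 fl/fl replicate 3 was the lowest library of the 6. Without that library the estimates were -0.058 for Mcm2 and 0.041 for Mcm5. Mcm3 and Mcm4 had log2 fold changes of 0.072 and 0.16, with -0.020 and 0.014 when Prmt5 fl/fl replicate 3 was left out.

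Mcm6 stood at 40292, 44702 and 35985 in Prmt5 KO, against 45682, 47848 and 38543 in Prmt5 fl/fl (log2 fold change -0.13, interval -0.44 to 0.19). Mcm7 stood at 17763, 21391 and 16233 in Prmt5 KO, against 22770.2, 22345 and 22039 in Prmt5 fl/fl (log2 fold change -0.29, interval -0.59 to 0.012; limma, adjusted p = 0.293). In scaled counts, every Prmt5 KO library was below every Prmt5 fl/fl library for Mcm7, and Prmt5 KO replicate 2 came closest. By TPM the genotypes overlapped, with Prmt5 KO replicate 2 at 423 and Prmt5 fl/fl replicate 3 at 384. Without Prmt5 fl/fl replicate 3 the estimate for Mcm7 was -0.30 (limma, unadjusted p = 0.0445, adjusted p = 0.198). The library kit does not mark strand, and 12.6% of the annotated exon bases of Mcm7 are shared with Ap4m1, Cops6, Mir25 or Mir93.

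The make-up of the helicase transcripts was compared within libraries, a comparison that does not depend on the scaling and that was chosen after the values were seen. Mcm7 made up 14.5%, 16.1% and 15.1% in the Prmt5 KO libraries, against 17.3%, 17.3% and 20.9% in the Prmt5 fl/fl libraries, as a share of the summed TPM of the 6 subunit genes. Mcm6 made up 27.2%, 27.8% and 27.7% in the Prmt5 KO libraries, against 28.7%, 30.5% and 30.2% in the Prmt5 fl/fl libraries. Mcm5 made up 14.1%, 13.4% and 13.7% in the Prmt5 KO libraries, against 12.6%, 12% and 11.6% in the Prmt5 fl/fl libraries. The shares of Mcm6 and Mcm7 were thus lower, and that of Mcm5 higher, in each Prmt5 KO library than in any Prmt5 fl/fl library. The same held upward for Mcm2 (15.6% ± 0.155 in Prmt5 KO and 14.0% ± 1.81 in Prmt5 fl/fl), Mcm3 (18.3% ± 0.386 in Prmt5 KO and 17.2% ± 0.202 in Prmt5 fl/fl) and Mcm4 (9.48% ± 0.374 in Prmt5 KO and 8.42% ± 0.524 in Prmt5 fl/fl; SD, n = 3 each). All 6 shares were thus apart between the genotypes, each at a two-sided exact permutation p of 0.1, the smallest possible, and this is given as a description. By scaled counts, only 1 of the 6 genes, Mcm7, was apart, and by TPM its values overlapped between the genotypes. The 28.2% of all genes that were apart is a rate for levels of single genes. It gives no background for shares within a sum. The 6 shares add up to 100% in a library and are not independent. The genes differ in length, from 2396 bases for Mcm7 to 3589 for Mcm4, and the part of length in the shares was not tested.

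**Figure D3:**
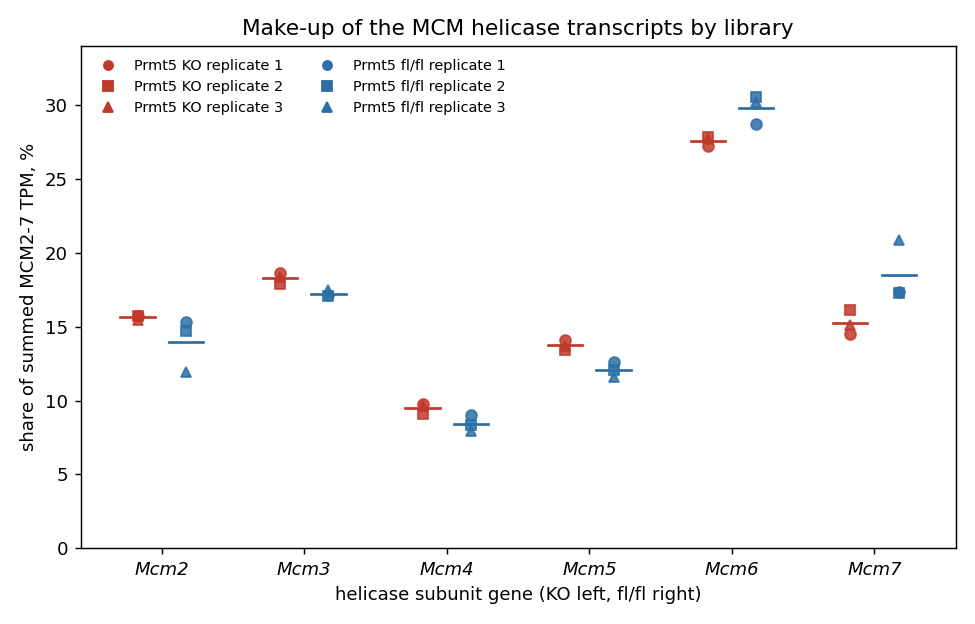
Share (%) of each MCM subunit gene in the summed TPM of the 6 subunit genes in each library, Prmt5 KO (red) left of Prmt5 fl/fl (blue), with bars at the means. The genotypes are apart for each gene, with Mcm2, Mcm3, Mcm4 and Mcm5 higher and Mcm6 and Mcm7 lower in Prmt5 KO.

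MCM genes are known E2F targets, and the bases before their starts were searched for 4 E2F spellings on both strands, with overlaps allowed, in RefSeq promoters on GRCm38.p6. The spellings were TTGGCGC or TTCCCGC or TTCGCGC or TTGCCGC. The 200 bases just upstream of 4 MCM genes are shown, since 2 of them whose shares went opposite ways, Mcm5 and Mcm6, both hold E2F letters while Mcm2 and Mcm3 hold none; capitals mark E2F matches and each sequence reads 5′ to 3′ on the gene's strand.
Mcm5 (chr8:75109309-75109508, plus strand): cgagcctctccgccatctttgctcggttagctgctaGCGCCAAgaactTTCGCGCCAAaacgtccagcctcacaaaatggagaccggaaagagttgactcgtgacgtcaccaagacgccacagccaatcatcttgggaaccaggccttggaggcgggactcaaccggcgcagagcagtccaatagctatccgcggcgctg
Mcm6 (chr1:128359706-128359905, minus strand): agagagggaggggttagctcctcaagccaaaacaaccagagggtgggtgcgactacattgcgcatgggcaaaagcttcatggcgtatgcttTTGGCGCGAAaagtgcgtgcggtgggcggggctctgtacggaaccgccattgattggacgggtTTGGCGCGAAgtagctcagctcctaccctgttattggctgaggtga
Mcm2 (chr6:88898781-88898980, minus strand): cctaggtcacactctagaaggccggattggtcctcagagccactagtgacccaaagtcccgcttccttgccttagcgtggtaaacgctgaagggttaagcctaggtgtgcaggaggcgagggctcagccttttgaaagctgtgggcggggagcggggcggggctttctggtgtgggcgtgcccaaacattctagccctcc
Mcm3 (chr1:20820313-20820512, minus strand): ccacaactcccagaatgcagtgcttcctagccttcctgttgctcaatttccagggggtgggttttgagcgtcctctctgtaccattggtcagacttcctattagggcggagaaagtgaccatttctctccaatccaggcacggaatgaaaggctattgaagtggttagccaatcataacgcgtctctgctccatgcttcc
The Mcm5 window holds 3 matches in 2 runs and the Mcm6 window 4 matches in 2 runs. A match is a spelling only, and its absence says nothing about E2F binding.

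Of the 36 genes 29 had a RefSeq promoter, and Mcm4, Gmnn, Gins1, Gins2, Gins4, Pole and Ccne2 had none in the table used. Within 250 bases upstream, 13 of the 29 held an E2F spelling (44.8%), against 13.8% of 10537 tested genes with a promoter. Upstream here means upstream of the RefSeq promoter's start. The windows of Mcm7, Cdc6 and E2f1 lay wholly within the GENCODE M21 span of their gene, and those of some others in part. Mcm7 and Cdc6 held an E2F spelling and E2f1 held none. The letters CCAAT, on either strand, were in 20 members (69.0%), against 36.1% of those genes. The CHR spellings TTTGAA and TTCGAA, typical of mitotic genes, were in 5 members (17.2%) and in 12.2% of all, but in 8 of 17 genes of a mitosis list (47.1%). The 13 members with E2F letters had a median log2 fold change of 0.057 and the 16 without them one of -0.0052.

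Of the 5 genes that mark origins and load or withhold the helicase, 0 passed the test. Orc1, the largest subunit of the origin recognition complex, stood at 1248, 1294 and 1114 scaled counts in Prmt5 KO, against 1257, 1092 and 945 in Prmt5 fl/fl (log2 fold change 0.16, 0.054 without Prmt5 fl/fl replicate 3). Cdc6, the ATPase that joins the complex to recruit the helicase, stood at 3863, 4498 and 3689 in Prmt5 KO, against 4812, 3741 and 3164 in Prmt5 fl/fl (log2 fold change 0.057, -0.084 without Prmt5 fl/fl replicate 3). For both genes the values of the genotypes overlapped. Cdt1 acts with the origin recognition complex and Cdc6 in loading the helicase. It stood at 5779, 5968 and 4703 in Prmt5 KO, against 5832, 5541 and 4722 in Prmt5 fl/fl (log2 fold change 0.029, -0.060 without Prmt5 fl/fl replicate 3). Gmnn, geminin, which binds Cdt1 and prevents loading for a further round, stood at 4503, 4292 and 3645 in Prmt5 KO, against 3791, 3550 and 4793 in Prmt5 fl/fl (log2 fold change 0.042, 0.17 without Prmt5 fl/fl replicate 3). The log2 ratio of Cdt1 to Gmnn averaged 0.40 ± 0.065 in Prmt5 KO and 0.41 ± 0.38 in Prmt5 fl/fl libraries (SD, n = 3 each; exact permutation p = 1), and its wide Prmt5 fl/fl spread came from replicate 3, at -0.022 against 0.62 and 0.64. Orc6 had a log2 fold change of -0.040, whose sign turned with median-of-ratios scaling, edgeR and DESeq2, and also without Prmt5 KO replicate 3 (0.0091) or without Prmt5 fl/fl replicate 3 (0.064).

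Of the 7 factors that turn a loaded helicase into a fork 0 passed the test, with folds on both sides of 0. Mcm10, needed to start unwinding, stood at 4039, 4755 and 4159 in Prmt5 KO, against 4664, 3468 and 2951 in Prmt5 fl/fl (log2 fold change 0.25, interval -0.19 to 0.68, 0.099 without Prmt5 fl/fl replicate 3). Cdc7, the kinase that phosphorylates the MCM ring, stood at 4785, 5869.7 and 4502 in Prmt5 KO, against 4875, 4532 and 3626 in Prmt5 fl/fl (log2 fold change 0.22, 0.095 without Prmt5 fl/fl replicate 3). Cdc45, which joins MCM and GINS in the active helicase, had a log2 fold change of -0.11. The values of the 2 genotypes overlapped for each of these 3 genes. The 4 GINS subunits, which sit in 1 complex in equal numbers, did not share a sign: Gins1 had 0.20, Gins2 -0.13, Gins3 -0.22 and Gins4 -0.19. Gins1 stood at 1790.1, 1846 and 1441 in Prmt5 KO, against 1491, 1259 and 1668 in Prmt5 fl/fl, and Gins3 at 1459, 1759 and 1271 in Prmt5 KO, against 1664, 1592 and 1953 in Prmt5 fl/fl. Prmt5 KO replicate 3 was the lowest of the 6 libraries for Gins2, Gins3 and Gins4. Without it the estimates were 0.019 for Gins2, -0.11 for Gins3 and -0.088 for Gins4, and without Prmt5 fl/fl replicate 3 they were -0.037, -0.13 and -0.079. Gins2 shares 67.3% of its annotated exon bases (2758 bases) with Gse1 on the other strand, so its value is uncertain. Its deposited length is only 1038 bases, so that share refers to all annotated exons and not to the bases behind the value. The part of Gse1 reads in the Gins2 value was not tested.

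At the fork, Pold1 and Pole showed how far a single library could move a value. Pole, the catalytic subunit of the leading-strand polymerase epsilon and the longest member at 7129 bases, stood at 5012, 6816 and 4916 scaled counts in Prmt5 KO, against 6934, 7572 and 2210.2 in Prmt5 fl/fl. Its log2 fold change was 0.18 with an interval of -0.86 to 1.22, and -0.39 without Prmt5 fl/fl replicate 3 (limma, unadjusted p = 0.0353, adjusted p = 0.177). Prmt5 fl/fl replicate 3 held less than any other library, and the other 2 Prmt5 fl/fl libraries held more than any Prmt5 KO library. Pold1, the catalytic subunit of polymerase delta, stood at 8875, 11761 and 9149 in Prmt5 KO, against 13255, 14134 and 8665 in Prmt5 fl/fl (log2 fold change -0.26; -0.47 without Prmt5 fl/fl replicate 3, limma, unadjusted p = 0.00851, adjusted p = 0.0947). Pola1, the polymerase that extends primers, had a log2 fold change of 0.035, and -0.19 without that library. All 3 polymerase genes thus had estimates below 0 without that library, and none passed the threshold.

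Prim1, the primase that lays down RNA primers, stood at 5121, 5438 and 4602 in Prmt5 KO, against 5893, 5335 and 7353 in Prmt5 fl/fl (log2 fold change -0.28, -0.15 without Prmt5 fl/fl replicate 3). Rfc3 and Rfc4, 2 subunits of the clamp loader that opens the PCNA ring, had log2 fold changes of opposite sign, 0.21 and -0.23. Rfc3 stood at 4033, 4335 and 3661 in Prmt5 KO, against 3359, 3148 and 3943 in Prmt5 fl/fl, and without Prmt5 fl/fl replicate 3 its estimate was 0.30 (limma, unadjusted p = 0.0228, adjusted p = 0.145). Pcna stood at 13099, 13964 and 10171 in Prmt5 KO, against 11934, 11818 and 14695 in Prmt5 fl/fl, and Rpa2, a subunit of the protein that coats single-stranded DNA, at 9752, 10668 and 8100.0 in Prmt5 KO, against 9192, 9562 and 10179 in Prmt5 fl/fl. Both had log2 fold changes near 0, -0.052 and -0.029, whose signs turned with median-of-ratios scaling, edgeR and DESeq2. The signs also turned without Prmt5 KO replicate 3 (0.085 for Pcna and 0.082 for Rpa2) and without Prmt5 fl/fl replicate 3 (0.051 for Pcna and 0.011 for Rpa2). Pcna has 2 annotated pseudogenes, Pcna-ps1 and Pcna-ps2, and Rfc4 shares 12.7% of its exon bases with Eif4a2, which adds to the uncertainty of both.

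Among the enzymes that make deoxynucleotides, the estimate for Tk1 lay below 0 and those of Rrm1, Rrm2 and Tyms above it, and 0 of the 4 passed the test. Rrm1, the large subunit of ribonucleotide reductase, stood at 25227, 25542 and 21334 scaled counts in Prmt5 KO, against 23728, 21520 and 18400.4 in Prmt5 fl/fl (log2 fold change 0.18, 0.084 without Prmt5 fl/fl replicate 3), and Rrm2, the small subunit made in S phase, at 14018, 11890.2 and 13031 in Prmt5 KO, against 13873, 10024 and 11096 in Prmt5 fl/fl (log2 fold change 0.16). Tyms, thymidylate synthase, which makes dTMP anew, stood at 8733, 9888 and 7056 in Prmt5 KO, against 7369.7, 6768 and 7771 in Prmt5 fl/fl (log2 fold change 0.22). Tk1, thymidine kinase, which salvages thymidine to the same product, stood at 5564, 6798 and 4230.1 in Prmt5 KO, against 7374, 5970 and 8195 in Prmt5 fl/fl (log2 fold change -0.39, interval -0.87 to 0.084; limma, adjusted p = 0.361). Prmt5 KO replicate 3 was the lowest library for Tk1, but Prmt5 KO replicate 2 exceeded Prmt5 fl/fl replicate 2. The estimate for Tk1 was -0.21 without Prmt5 KO replicate 3 and -0.55 without Prmt5 KO replicate 2.

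Within each library the salvage enzyme was set against the synthase. The log2 ratio of Tk1 to Tyms was -0.65, -0.54 and -0.74 in Prmt5 KO replicates 1 to 3, against 0.00079, -0.18 and 0.077 in Prmt5 fl/fl replicates 1 to 3. The ratio was lower in each Prmt5 KO library than in any Prmt5 fl/fl library, by 0.61 on average (two-sided exact permutation p = 0.1, the smallest possible, and 0.6 after adjustment over the 6 ratios compared). Leaving out any 1 library kept it between -0.68 and -0.55. Tk1 has 1369 bases and Tyms 3808, and Tyms has an annotated pseudogene, Tyms-ps, and the part of length in the ratio was not tested. The ratios of Rrm2 to Rrm1 (difference -0.019), of Cdc6 to Orc1 (-0.10), of Ccne1 to Ccne2 (0.20) and of E2f1 to E2f2 (-0.68) overlapped between the genotypes, with exact permutation p of 0.9, 0.4, 0.6 and 0.5.

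Of the 4 cyclin E and E2F genes 0 passed the test, and the values of Ccne1 and E2f2 spread widely within a genotype. Ccne1, cyclin E1, the activator of the kinase that drives entry into S phase, stood at 1889, 1565 and 1651 scaled counts in Prmt5 KO, against 2010.2, 1068 and 1162 in Prmt5 fl/fl (log2 fold change 0.32, interval -0.26 to 0.91). Prmt5 fl/fl replicate 1 was the highest library of the 6, while Prmt5 fl/fl replicates 2 and 3 lay below all Prmt5 KO libraries. Ccne2, the second E cyclin, stood at 1469.9, 1712 and 1351 in Prmt5 KO, against 1481, 1278 and 1390.5 in Prmt5 fl/fl (log2 fold change 0.12), and shares 17.4% of its exon bases with Ints8. E2f1, the activator E2F that switches on replication genes, stood at 3239, 4122 and 2837 in Prmt5 KO, against 4129, 4345 and 3645 in Prmt5 fl/fl (log2 fold change -0.26, interval -0.66 to 0.13).

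E2f2, a second activator E2F, stood at 743, 843 and 1820.3 in Prmt5 KO, against 1358, 901 and 393 in Prmt5 fl/fl (log2 fold change 0.41, interval -0.76 to 1.59). Prmt5 KO replicate 3 held more than any other library and Prmt5 fl/fl replicate 3 less. Prmt5 KO replicate 3 also had the highest summed granulocyte and monocyte markers (812856), Prmt5 fl/fl replicate 1 the next highest of both measures, and Prmt5 fl/fl replicate 3 the lowest of both. The part of such cells in the E2f2 values was not tested. The estimate for E2f2 was 0.014 without Prmt5 KO replicate 3 and -0.083 without Prmt5 fl/fl replicate 3.

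Uhrf1, which binds hemimethylated DNA behind the fork and brings in the maintenance DNA methyltransferase, stood at 11596, 13575 and 12064 scaled counts in Prmt5 KO, against 13131, 12261 and 8926 in Prmt5 fl/fl (log2 fold change 0.13, -0.035 without Prmt5 fl/fl replicate 3). Slbp, which binds the stem-loop at the end of histone mRNAs and is needed to make them in S phase, stood at 12328, 13575 and 12249.8 in Prmt5 KO, against 14208, 13773 and 18292 in Prmt5 fl/fl (log2 fold change -0.27, interval -0.60 to 0.059; limma, adjusted p = 0.362). In scaled counts, every Prmt5 KO library held less Slbp than any Prmt5 fl/fl library. The closest were Prmt5 KO replicate 2 (13575) and Prmt5 fl/fl replicate 2 (13773), at 338 and 354 by TPM. Without Prmt5 fl/fl replicate 3, the highest for Slbp, the estimate was -0.14. Without strand, reads of annotated neighbours can also fall on smaller shares of the exon bases of Orc1 (10.8%), Slbp (7.8%), Orc6 (6.93%), Cdc45 (5.96%), Tk1 (1.6%) and Pole (0.699%).

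**Figure D4:**
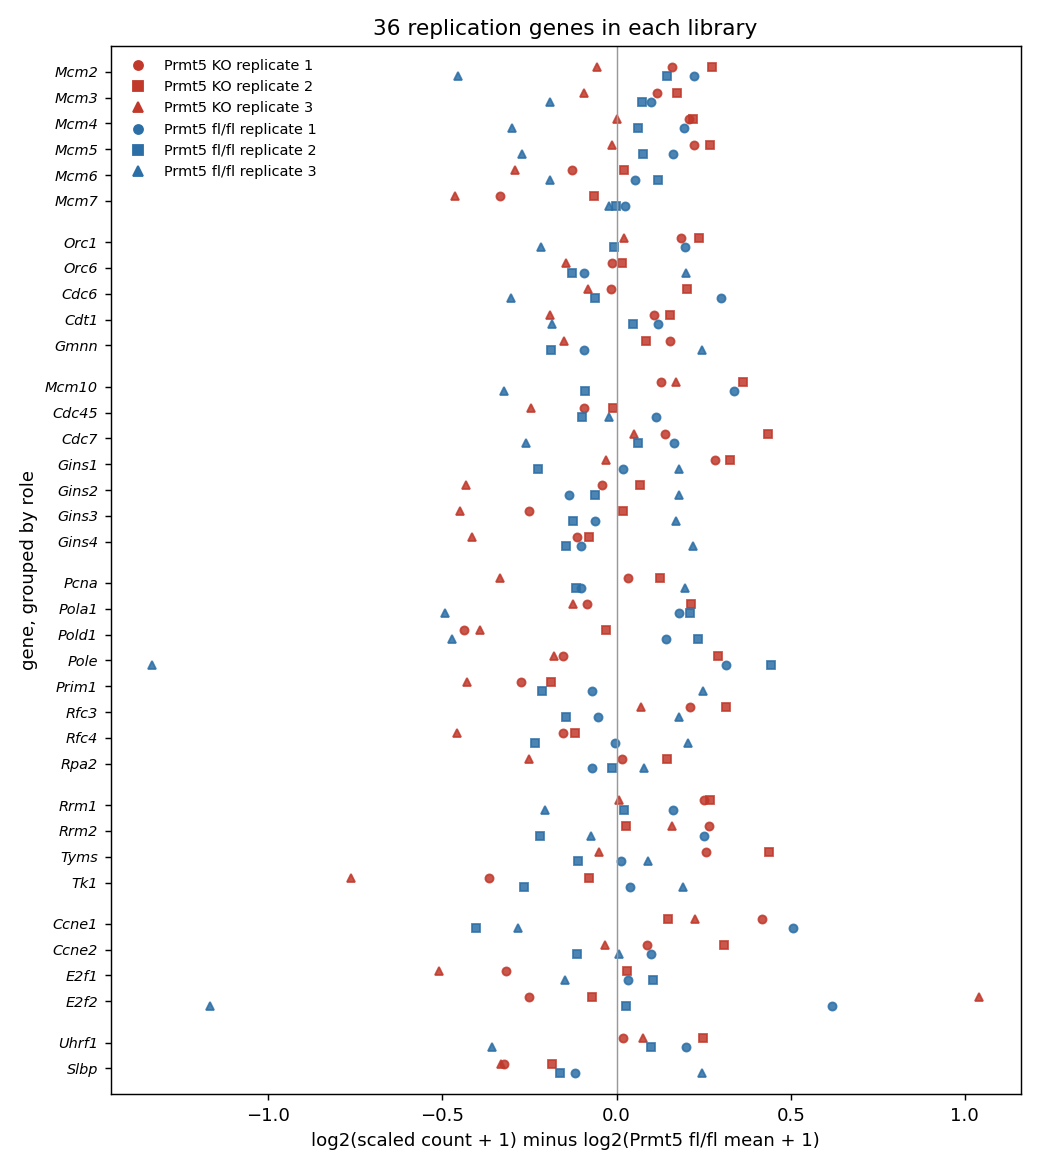
Log2(scaled count + 1) of each member in each library, as the difference from the log2 of the Prmt5 fl/fl mean + 1 of that gene, with Prmt5 KO (red) drawn above Prmt5 fl/fl (blue). The genotypes overlap for 34 of 36 genes; Prmt5 KO replicate 2 (red square) tends to lie to the right, Prmt5 KO replicate 3 (red triangle) to the left, and Prmt5 fl/fl replicate 3 (blue triangle) at either edge.

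The level of the set varied between libraries of 1 genotype, and the genotypes overlapped. Their median log2 difference from the Prmt5 fl/fl mean was 0.039, 0.15 and -0.089 in Prmt5 KO replicates 1 to 3, against 0.10, -0.048 and -0.10 in Prmt5 fl/fl replicates 1 to 3. Prmt5 KO replicate 2 was the highest of the 6 libraries for 16 members and Prmt5 KO replicate 3 the lowest for 15. Prmt5 fl/fl replicate 3 was the highest for 10 and the lowest for 14. The members together took 0.754%, 0.819% and 0.670% of the reads in Prmt5 KO, against 0.802%, 0.763% and 0.685% in Prmt5 fl/fl. A list of 20 mitosis genes did not follow the same order, at 0.039, -0.0075 and -0.041 in Prmt5 KO and 0.070, -0.22 and 0.20 in Prmt5 fl/fl.

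In Prmt5 fl/fl replicate 3 the level of a replication gene went with its length. The 12 shortest members (977 to 1906 bases, among them Gmnn, Prim1, Rfc4, Tk1 and Slbp) lay at a median log2 of 0.31 relative to the mean of the other Prmt5 fl/fl libraries, the 12 of middle length at -0.24 and the 12 longest (3371 to 7129 bases, among them Pole, Pola1, E2f2 and Mcm2) at -0.48. Pole had 2210.2 scaled counts there, against 6934 and 7572 in the other Prmt5 fl/fl libraries, while Prim1 had 7353, against 5893 and 5335. Among the Prmt5 KO libraries the Spearman correlation with length of each library's difference from the other Prmt5 KO libraries was -0.61, 0.16 and 0.37 for replicates 1 to 3. With all 6 libraries the median log2 fold change of the short, middle and long classes was -0.091, 0.051 and 0.16, and without Prmt5 fl/fl replicate 3 it was -0.013, -0.040 and -0.046. The Spearman correlation of the fold change with length across the 36 genes was 0.41 with all libraries and -0.19 without that one.

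**Figure D5:**
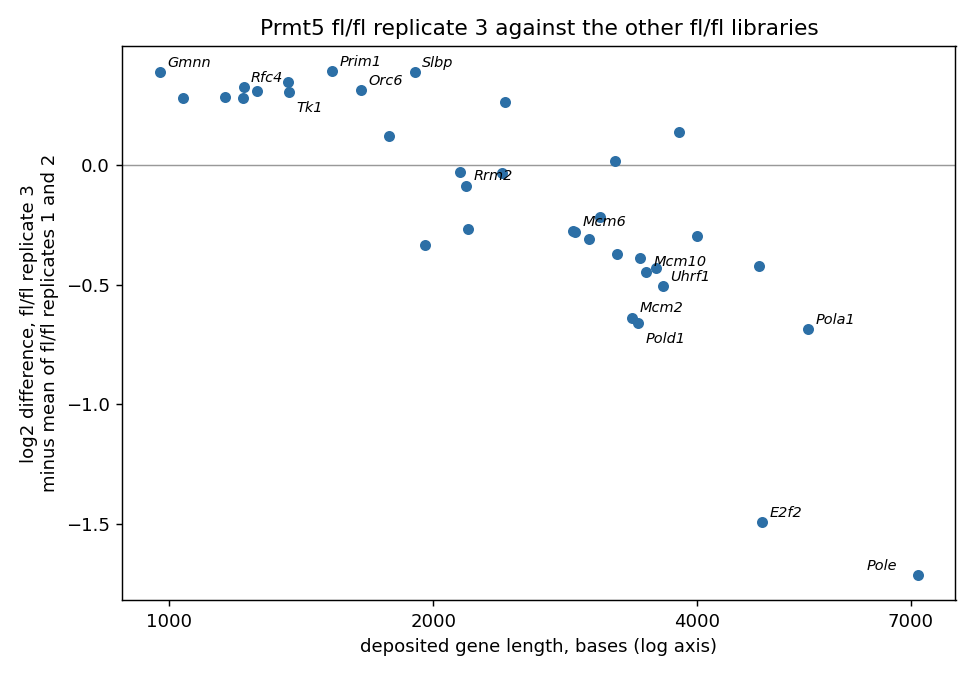
Log2 level of each member in Prmt5 fl/fl replicate 3 minus its mean in Prmt5 fl/fl replicates 1 and 2, against deposited gene length (log axis, bases). Short genes such as Gmnn and Prim1 lie above 0 and long genes such as E2f2 and Pole far below it.

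Without Prmt5 fl/fl replicate 3, limma called 0 of the 36 members, against 2.67% of all genes (120 higher and 257 lower). At an unadjusted p under 0.05 it had 1 member higher, Rfc3, and 3 lower, Pold1, Pole and Mcm7, against 23.8% of all genes. The sign turned for 11 of the 36 members, among them Mcm2, Mcm3, Cdc6, Cdt1, Pole, Pola1, E2f2 and Uhrf1. The median log2 fold change of the members was -0.036, beside -0.075 over all genes. All 36 intervals then lay within 2-fold, as did those of 68.6% of all genes.

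Without Prmt5 KO replicate 3, limma also called 0 of the 36 members, against 0.0213% of all genes (1 higher and 2 lower). At an unadjusted p under 0.05 it had 1 member higher, Tyms, at a log2 fold change of 0.35 (limma, unadjusted p = 0.0455, adjusted p = 0.391), against 12.4% of all genes. The sign turned for 4 members, Orc6, Gins2, Pcna and Rpa2. The members' median log2 fold change was 0.12, beside -0.042 over all genes.

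Other genes of replication and the cell cycle were counted in 5 further lists, to be read beside the 0.73% of all genes called. Of 40 further replication factors 0 rose and 1 fell. That gene was Rnaseh2c, a subunit of the nuclease that removes ribonucleotides from DNA, at 2370.3, 2570.3 and 2142 scaled counts in Prmt5 KO, against 4328, 3999 and 4762 in Prmt5 fl/fl (log2 fold change -0.89; limma, adjusted p = 0.0475; with the block 0.197, with edgeR 0.0572). Its call was lost without each other library in turn, and it was kept without Prmt5 fl/fl replicate 3 (limma, adjusted p = 0.027). Orc4, an origin recognition subunit, stood at 4791, 4381 and 4503 in Prmt5 KO, against 3143, 3191 and 3478 in Prmt5 fl/fl (log2 fold change 0.48; limma, adjusted p = 0.103, and 0.0376 without Prmt5 fl/fl replicate 3). Dscc1, part of an alternative clamp loader, was at -0.75 (limma, adjusted p = 0.107). DESeq2, which called 6.95% of all genes, called Rnaseh2c, Orc4 and Dscc1 (DESeq2, adjusted p of 3.53e-05, 0.0025 and 0.0276). EdgeR called none of them. The list's median was -0.037.

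Of 9 chromatin replication genes 0 passed the limma test. Asf1b, a histone chaperone of S phase, stood at 2832, 3029 and 2761 in Prmt5 KO, against 4334, 4233 and 5441 in Prmt5 fl/fl (log2 fold change -0.69; limma, adjusted p = 0.0724, and 0.0322 without Prmt5 fl/fl replicate 3). DESeq2 called Asf1b lower (DESeq2, adjusted p = 0.00815), and edgeR did not (edgeR, adjusted p = 0.0931). Hells, a chromatin remodeler needed for DNA methylation, and Chaf1b, a subunit of the CAF-1 chaperone, had log2 fold changes of 0.37 and -0.25. Of 18 other genes of nucleotide synthesis 0 passed, and the 3 with the smallest p were Tk2 (-0.41) and Dguok (-0.50), both mitochondrial salvage kinases, and Gart (0.32), an enzyme of purine synthesis. Of 26 other genes of G1/S control 0 passed. E2f6, a repressor E2F, stood at 2934, 3782 and 2531 in Prmt5 KO, against 4502, 4662 and 4704 in Prmt5 fl/fl (log2 fold change -0.60; limma, adjusted p = 0.124), while Fbxo5, an inhibitor of the anaphase-promoting complex, had -0.51 and Cdc25a, the phosphatase that activates cyclin-dependent kinases, 0.39. Of 20 mitosis genes 0 passed, with Top2a at -0.27, Nusap1 at -0.28 and Bub1 at 0.24, and a median of -0.021.

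Some megakaryocyte, platelet and red cell precursor markers fell. Itga2b and Rab27b, 2 of 10 megakaryocyte and platelet markers, and Klf1, 1 of 8 tested red cell precursor markers, passed the limma threshold, all lower. Of all genes tested, limma called 0.73%. Their log2 fold changes were -1.95, -0.91 and -2.11 (limma, adjusted p of 0.0195, 0.0475 and 0.0476; with the replicate number as a block 0.102, 0.197 and 0.161), and the 3 calls held without Prmt5 fl/fl replicate 3 but not when any of the other 5 libraries was left out. The summed megakaryocyte and platelet markers were at 32246 to 61191 scaled counts in Prmt5 KO and 73572 to 91267 in Prmt5 fl/fl, with none at 0. Those of red cell precursors were at 5331, 4921 and 5004 in Prmt5 KO replicates 1 to 3. In Prmt5 fl/fl replicates 1 to 3 they were at 13543, 5352 and 6256, so the genotypes came close to each other. Hba-a1 and Hbb-b1 were listed at 0 in all 6 libraries. Limma called 0 genes of the stem cell, multipotent progenitor, granulocyte and monocyte, B cell, T and NK cell, mast cell and basophil, and endothelial marker lists. Whether the marker transcripts came from the stem cells or from other cells was not tested. The part of other cells in the members' values was not tested either.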

How the data were processed

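Per the labels' protocols, Trizol RNA was amplified by SMART-Seq v4 and tagmented with Nextera XT, which leaves no record of strand. Per the submitters' processing notes, STAR and featureCounts were used on mm10; no source used here gives their versions. The deposited table from the authors has 6 columns of values: Prmt5 fl/fl replicate 2 holds read counts, and the other 5 columns hold a signal, counts scaled to its total. Dividing by the factor gave whole reads for 100% of values (tolerance 1e-06). Of 24110 genes, 6234 were at 0 everywhere.

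The 36 members and all other lists were chosen with earlier results of these data known. Limma 3.58.1 (R 4.3.3), with a mean-variance trend and 4 residual degrees of freedom, was fitted two-sided to log2(scaled count + 1) of the 14113 genes with a mean of at least 10, and p-values were adjusted by Benjamini-Hochberg. The log2(value + 1) scale understates changes of low genes. EdgeR 4.0.16 and DESeq2 1.42.0 ran on the recovered reads as alternatives. The fits were also tested on simulated counts with a common dispersion and no outlying library or length trend. Those counts differed from these libraries, so that test does not cover such traits. Since each library pools 2 mice, p-values measure the spread between pools. No library was a copy of another (chi-square over degrees of freedom at least 27.3 between libraries of a genotype). Named were every member, Prmt5, Cdkn1a, and of each other list the genes past the threshold, plus the 3 with the smallest p in each replication, nucleotide, G1/S and mitosis list. TPM used the deposited gene lengths. Promoters were RefSeq sequences on GRCm38.p6, with the first window taken where a gene had several (25 of 29 had 1). Shared exon bases came from GENCODE M21. Each share is of all annotated exon bases of a gene, which can be more than its deposited length. It need not be the share of the bases that were counted. Python 3.11.15 and matplotlib 3.10.9 drew the plots.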

Additional observations from a re-analysis of the deposited data

How the results depend on the processing

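Limma called 0 members with all libraries and in each of the 16 alternatives, edgeR and DESeq2 included, and 23 of 36 members kept 1 sign throughout. At an unadjusted limma p under 0.05, 3 members were lower without Prmt5 KO replicate 2 (all genes: 538 higher and 1588 lower of 14118). Without Prmt5 fl/fl replicate 1, 2 members were higher (768 and 1743 of 14080). With quantile normalization 1 member was lower (853 and 1375 of 14113). The members' median log2 fold change ran from 0.0495 to 0.1365 under other scalings, filters, pseudocounts and tools, and from -0.0361 to 0.1334 with 1 library left out. Signs turned with median-of-ratios size factors, edgeR and DESeq2 for Orc6 (0.047, 0.017 and 0.040), Pcna (0.035, 0.014 and 0.038) and Rpa2 (0.058, 0.040 and 0.064), genes near 0. With 1 library left out, the estimates ran from -0.058 to 0.28 for Mcm2, -0.020 to 0.15 for Mcm3, -0.10 to 0.064 for Orc6, -0.084 to 0.22 for Cdc6, -0.060 to 0.14 for Cdt1, -0.046 to 0.17 for Gmnn, -0.23 to 0.019 for Gins2, -0.14 to 0.085 for Pcna, -0.19 to 0.16 for Pola1, -0.39 to 0.49 for Pole, -0.12 to 0.082 for Rpa2, -0.083 to 0.81 for E2f2 and -0.035 to 0.24 for Uhrf1, all across 0. Of these, 11 turned sign without Prmt5 fl/fl replicate 3 and 4 without Prmt5 KO replicate 3; the cause was not tested. Over all genes the calls were 365 higher and 616 lower with DESeq2, 38 lower without a filter on low values, 22 lower with median-of-ratios, 26 lower with quantile normalization and 26 lower with edgeR, and 1 to 120 higher and 2 to 257 lower with 1 library left out. The replicate number as a block left 1 higher and 0 lower, and Prmt5 at -2.596 with a limma adjusted p of 0.0618. The labels give same-numbered libraries a shared title prefix without saying what it means. Deviations of same-numbered libraries correlated at -0.14, 0.067 and -0.26, and 1 of 6 libraries correlated best with its own number. The block was not taken as the design, but so few libraries cannot exclude a pairing, and the animals were matched by litter and gender. The adjusted p with the block is therefore given beside the calls of named genes. For other replication factors, DESeq2 gave 3 higher and 3 lower, 0 were lower with median-of-ratios, quantile normalization, no trend, edgeR or the block, and 0 to 1 were higher or lower with 1 library left out. DESeq2 called 1 chromatin replication gene lower, 1 stem cell marker higher and 1 lower, 1 T and NK cell marker higher and 1 endothelial marker higher, and leaving out 1 library gave 0 to 1 for each of these but the T and NK cell markers. Red cell precursor markers lower were 2 with DESeq2, 0 with no filter, median-of-ratios, quantile normalization, no trend, edgeR and the block, and 0 to 1 with 1 library left out. Megakaryocyte and platelet markers lower were 6 with DESeq2, 1 with median-of-ratios, quantile normalization, no trend and edgeR, 0 with the block and 0 to 5 with 1 library left out. With 3 libraries a group, the intervals of Pole and E2f2 each reach beyond 2-fold; the part of depth in this was not tested.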
